A study of Rattus norvegicus with 49 samples.

Results

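The livers of rats kept on 15% less food were compared between day 14 and day 4 of the restriction. These rats form group 3 of the study, and all samples whose labels give group 3 were taken, that is 10 of 49 arrays, with 5 rats at day 14 and 5 at day 4. Each array was 1 male Sprague-Dawley rat, 8 to 10 weeks old at the start, and each label gives its own subject number. Group 3 received 85% of the food that rats eat freely and was fasted overnight before the liver was taken. Group 2 ate ad libitum, was fasted overnight in the same way, and has 5 rats at day 14 and 5 at day 4, so its day difference shows what separates the days without restriction. Group 4 (30% less food) and group 5 (60% less food), fasted as well and with 5 rats per day, are used where the size of the restriction matters. Group 1 (ad libitum, not fasted by its labels, although the design text of the series has every animal fasted) is not used here. The day of sampling is the only label of a possible batch, and within group 3 it cannot be told apart from the length of the restriction.

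The values are normalised intensities of 1 probe set for each of 14217 genes, on a log2 scale, so that a difference of 1 is a doubling of signal. All differences are day 14 minus day 4. A gene is called where the adjusted p of limma, which tests every gene and shares the spread between genes, is under 0.1 after Benjamini-Hochberg adjustment over all genes, and rose or fell is written of called genes alone. The number of rats limits the precision. The arrays were alike by correlation: the mean correlation of an array with the rest of its own group and day lay between 0.990 and 0.995, and no pair of arrays held identical values. Correlation does not see a shift in level. The median log2 intensity of the group 3 arrays ran from 7.43 to 7.45 at day 14 and from 7.38 to 7.41 at day 4, without overlap, and the part of this offset in the results was not tested. As a check of the tissue, none of 9 hepatocyte markers lay below the level that leaves out the dimmest 25% of genes, and their summed intensity ran from 170238 to 175411 at day 14 and from 172263 to 178001 at day 4 in group 3. The summed intensity of 10 Kupffer cell and macrophage markers ran from 13540 to 20136 at day 14 and from 10923 to 16482 at day 4, and 1 of them, Clec4f, was called (0.38 on the log2 scale); its part in the results was not tested. Each sample is a piece of whole liver, in which fewer cells of a type and less RNA per cell cannot be told apart.

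Liver cells carry a circadian clock, a loop in which BMAL1 paired with CLOCK or NPAS2 switches on the genes of its own repressors, the PER and CRY proteins, and of output factors such as DBP. Meal times set the phase of this clock in the liver more strongly than light does. The liver is also the main site of cholesterol and fatty acid synthesis, and the genes of cholesterol synthesis are switched on together by the transcription factor SREBP2, which the INSIG proteins hold back when sterols are plentiful. During a fast the liver burns fatty acids, exports ketone bodies and makes glucose from amino acids.

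Between day 14 and day 4 of the milder restriction, 1817 of 14217 genes were called in group 3, which is 12.8% of those tested. Of these, 1269 rose (8.93%) and 548 fell (3.85%). At an unadjusted p under 0.05 there were 3498 genes (24.6%). The same comparison in group 2 called 1 gene (0.00703%), with 1230 at an unadjusted p under 0.05 (8.65%). That gene was Jam3, a junctional adhesion molecule, with values of 7.95, 8.10, 7.98, 7.95 and 7.89 at day 14 and 7.44, 7.56, 7.50, 7.38 and 7.47 at day 4 in group 2 (0.51 ± 0.06 SE, limma adjusted p = 0.0333), and it was chosen for naming after its values were seen. Most of the differences in group 3 were small: the median size among called genes was 0.30, 243 of them were past 1.5-fold (1.71% of all genes, 157 higher and 86 lower), and 73 were past 2-fold (0.513%, 44 higher and 29 lower). The 5 values of day 14 and the 5 of day 4 did not overlap in 1139 genes in group 3 (8.01%), 997 of them called (7.01%), and in 219 genes in group 2 (1.54%). The excess of rises over falls depended on the scaling. After a further quantile normalization of these arrays 1310 genes were called, 666 higher and 644 lower, so that 50.8% of the calls were rises in place of 69.8%. The count itself fell to 960 without day 14 replicate 1, 1015 without day 14 replicate 2, 1163 without day 14 replicate 5 and 1189 without day 4 replicate 4.

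The direction of the day difference was partly shared with the freely fed rats. Across all 14217 genes the differences of group 3 and group 2 had the same sign in 65.0%, and across the 1817 called genes in 76.7%. Of the called genes 1760 had the larger difference in group 3. They were chosen by that difference, so this count cannot compare the groups. The correlation across genes was r = 0.30 (Spearman's rho = 0.37). This describes genes, which are not independent of each other, and the 2 groups share no rats. The spread of the differences over all genes was 0.22 (SD) in group 3 and 0.15 in group 2, with a median standard error of 0.081 and 0.085.

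**Figure D1:**
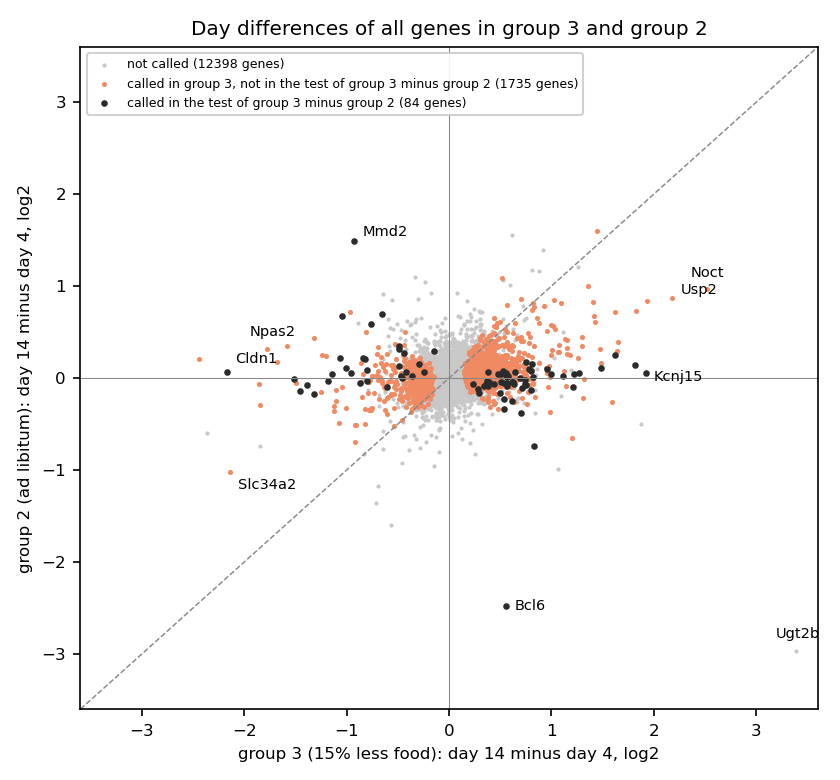
Day 14 minus day 4 on the log2 scale for each of 14217 genes, in group 3 (15% less food, horizontal axis) and group 2 (ad libitum, vertical axis), with orange points for genes called in group 3, black points for genes called in the test of group 3 minus group 2 and a dashed line where both are equal. The orange points were chosen by their difference in group 3, so their spread along that axis cannot compare the groups. Usp2 and Noct lie at the right and Cldn1 and Slc34a2 at the left, and Ugt2b, which was not called, lies apart at the lower right.

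Genes of the circadian clock were among those called most often. Of 20 measured clock genes in 3 lists, 11 rose and 3 fell at day 14 in group 3, set against 12.8% of all genes called. None of them was called by limma in group 2, where 1 of 20 passed an unadjusted p under 0.05 and the lognormal-normal model used as an alternative called 0. The called repressors of the loop rose and the called activators fell. Among 9 measured repressors 6 rose, none fell and 3 were not called, among 4 activators 3 fell and 1 was not called, and the repressors had a median difference of 1.14 over the list, against 0.01 over all genes.

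Because the clock acts through short DNA elements close to gene starts, 4 promoters that hold an exact match are shown, to set the element beside the direction in which the gene moved. They are from RefSeq (build GRCr8), where 19 of the clock genes had a promoter of 250 bases before to 50 after the start. The E-box CACGTG, the site of the BMAL1 complexes, was found in 5 of these 19 (26.3%) and in 6.42% of all 33469 promoters. The D-box, TTATGTAA or TTACGTAA, which DBP, TEF and HLF bind, was in 1 of 19 and in 1.01% of all, and the ROR element, an AGGTCA core with its flank that ROR and REV-ERB receptors bind, in 1 of 19 and in 0.245% of all. Both strands were searched, and capitals mark the match.
Per2, D-box, chr9:99497148-99497215, minus strand: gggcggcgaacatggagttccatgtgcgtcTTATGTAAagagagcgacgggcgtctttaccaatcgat
Bhlhe40, E-box, chr4:143174200-143174265, plus strand: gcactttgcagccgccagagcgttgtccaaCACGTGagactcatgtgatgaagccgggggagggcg
Tef, E-box, chr7:115206599-115206664, plus strand: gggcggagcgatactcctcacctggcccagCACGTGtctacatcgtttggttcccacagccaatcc
Bmal1, ROR element, chr1:176766279-176766327, plus strand: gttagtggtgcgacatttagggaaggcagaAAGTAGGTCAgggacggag
A match is a run of letters and no measure of binding in these livers. Of the 4 genes, Per2, Bhlhe40 and Tef rose and Bmal1 fell. The other clock promoters with an E-box were those of Bhlhe41 and Klf15, which rose, and of Nr1d1, which was not called (0.09).

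Per2, a repressor that is made in daily pulses, had log2 intensities of 10.14, 9.79, 9.57, 9.97 and 9.92 in the 5 day 14 rats of group 3, against 8.92, 7.67, 8.88, 7.58 and 8.08 in the 5 day 4 rats. All day 14 rats lay above all day 4 rats, and the day 4 rats fell into a pair at 8.92 and 8.88 (replicates 1 and 3) and 3 rats at or below 8.08. The difference was 1.65 ± 0.25 (SE, limma adjusted p = 0.00543), a 3.14-fold rise, while a further probe set of Per2 differed by 0.23. In group 2, Per2 read 7.41, 7.11, 8.01, 8.02 and 7.87 at day 14 and 7.91, 6.34, 7.07, 7.02 and 8.09 at day 4, overlapping ranges whose means differed by 0.40 ± 0.31 (SE, limma adjusted p = 0.755).

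Cry1, the partner of PER2 in repression, had 8.06, 7.95, 7.62, 8.34 and 7.98 at day 14 against 6.39, 6.30, 6.55, 7.07 and 6.63 at day 4 in group 3, without overlap, a difference of 1.40 ± 0.15 (SE, limma adjusted p = 0.00186). The group 2 values of 7.78, 7.26, 9.20, 7.29 and 8.24 at day 14 and 7.43, 7.89, 7.25, 6.27 and 6.82 at day 4 overlapped (0.82 ± 0.38 SE, limma adjusted p = 0.577). Bhlhe40, which competes with BMAL1 at the E-box, read 9.58, 9.39, 9.11, 9.53 and 8.81 at day 14 and 7.84, 7.52, 8.35, 7.53 and 8.38 at day 4 in group 3 (1.36 ± 0.20 SE, limma adjusted p = 0.00499). Its difference in group 2 was 1.00 ± 0.27 (SE) with an adjusted p of 0.352 by limma and the same sign, and the difference of the 2 day differences, 0.36 ± 0.36 (SE), was not called (0.838 by limma). The related Bhlhe41 rose by 1.32 with overlapping ranges (adjusted p = 0.0909 by limma), and its call was lost on leaving out each of 7 arrays in turn (1.06 to 1.44) and after quantile normalization (1.31). Per3 and Nr1d2, a PER homologue and the receptor REV-ERB beta, rose by 1.14 and 0.72, while Per1, Cry2 and Nr1d1 were not called (differences of 0.52, 0.42 and 0.09).

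Bmal1, the core activator, ran the other way. Its log2 intensities were 6.34, 6.11, 6.34, 5.75 and 5.43 in day 14 rats of group 3, against 6.79, 8.23, 6.61, 8.50 and 7.73 in day 4 rats, a difference of -1.58 ± 0.35 (SE, limma adjusted p = 0.0227). All day 14 rats were below all day 4 rats, and the nearest day 4 rats were the same pair that stood nearest in Per2. In group 2 the values were 9.29, 8.81, 9.72, 8.33 and 9.23 at day 14 and 8.97, 9.25, 9.10, 8.31 and 8.02 at day 4, a difference of 0.35 ± 0.28 (SE, limma adjusted p = 0.769) in the opposite direction. Npas2, which can stand in for CLOCK, read 4.46, 4.81, 4.91, 4.52 and 4.95 at day 14 against 5.52, 7.22, 5.43, 7.52 and 6.87 at day 4 in group 3 (-1.78 ± 0.37 SE, limma adjusted p = 0.0185), again without overlap and again with replicates 1 and 3 of day 4 the lowest of their group. All 5 day 14 values of Npas2 lay below 5.68, the level under which the dimmest 25% of genes fall, and its signal over background there is not known. Clock itself fell by 0.69 ± 0.18 (SE) with an adjusted p of 0.0397 by limma, and 4 probe sets of Clock all differed downwards. Rora, an activator of Bmal1, differed by 0.09 and was not called.

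The output factors rose with the repressors, 5 of 7 measured. Dbp, a D-box activator driven by the BMAL1 complex, read 10.70, 10.85, 10.45, 10.85 and 11.15 at day 14 against 9.94, 8.41, 10.56, 7.76 and 9.36 at day 4 in group 3, with the lowest day 14 rat below the highest day 4 rat (1.59 ± 0.43 SE, limma adjusted p = 0.0478). The call was lost without day 14 replicate 5, where the difference was 1.51. Its relatives Tef and Hlf rose by 0.78 ± 0.18 (SE) and 0.81 ± 0.13 (SE), both without overlap. Usp2, a deubiquitinase of clock proteins, rose most of the clock genes: 10.70, 10.29, 9.85, 9.74 and 10.30 at day 14 against 9.06, 7.67, 9.01, 7.41 and 6.83 at day 4 (2.18 ± 0.40 SE, limma adjusted p = 0.0108). Klf15, a regulator of amino acid use, rose by 0.57, whereas Nfil3, the D-box repressor, read 0.10. Noct, the rhythmic gene of nocturnin, rose by 2.52 ± 0.50 (SE, limma adjusted p = 0.0144) and was named after its values were seen: 11.45, 10.07, 8.40, 10.27 and 10.73 at day 14 and 8.42, 7.71, 8.11, 7.55 and 6.52 at day 4, where the lowest day 14 rat, at 8.40, lay just below the highest day 4 rat, at 8.42.

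The individual rats differed in how far their clock genes stood apart. On a scale that puts the day 4 mean of group 3 at 0 and its day 14 mean at 1, the median over the 14 called clock genes was between 0.76 and 1.10 in the 5 day 14 rats. In the day 4 rats it was 0.40, -0.40, 0.61, -0.48 and -0.09, and day 4 replicate 3 was nearer to the day 14 mean in 8 of 14 genes. On the same scale the 10 rats of group 2 lay between -0.93 and -0.01 whatever the day. The hour at which each liver was taken was not given in the sources used here, and its part in these values was not tested.

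**Figure D2:**
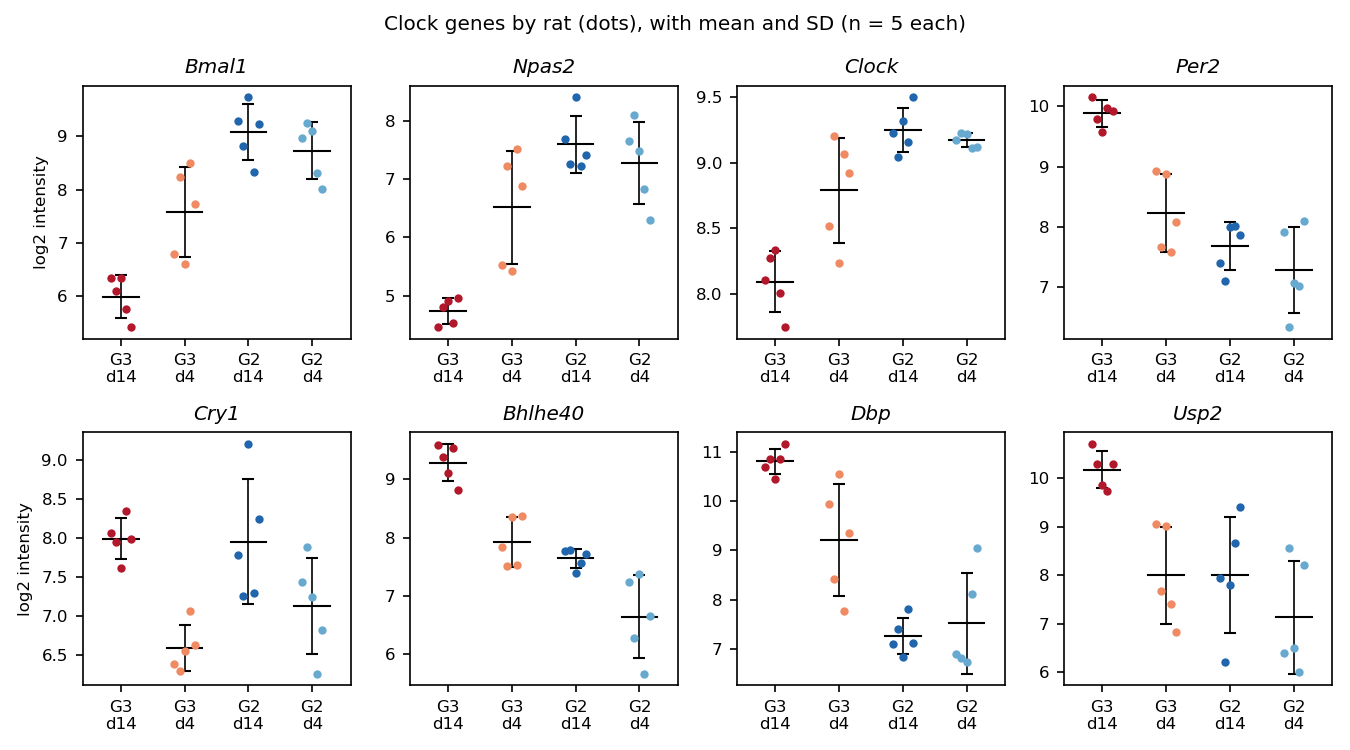
Log2 intensity of 8 clock genes in each rat (dots), with the mean and SD of 5 rats, for group 3 (G3) and group 2 (G2) at day 14 (d14) and day 4 (d4). In group 3 the day 14 dots of Per2, Cry1 and Bhlhe40 sit above those of day 4 and the dots of Bmal1 and Npas2 below, while the dots of group 2 overlap between the days for most genes.

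No clock gene was called as differing in its day difference between group 3 and group 2. In the test of group 3 minus group 2, 0 of the 20 clock genes were called by limma, against 0.591% of all genes, although 11 of 20 passed an unadjusted p under 0.05 (8 higher and 3 lower). Bmal1 came to -1.93 ± 0.48 (SE, limma adjusted p = 0.111) for group 3 minus group 2. Set beside the other restricted groups, 5 clock genes rose and 1 fell in group 4, where 5.47% of all genes were called, and 8 rose and 0 fell in group 5 by limma (6.71% of all genes), where 2 of the 20 were lower at an unadjusted p under 0.05. Cry1 was called in all 3, with 1.40 in group 3, 1.25 in group 4 and 1.21 in group 5. Bmal1 averaged 5.99 ± 0.40 at day 14 and 7.57 ± 0.84 at day 4 in group 3, 6.23 ± 0.54 at day 14 and 6.35 ± 0.46 at day 4 in group 4, 6.27 ± 0.31 at day 14 and 6.32 ± 0.39 at day 4 in group 5, and 9.08 ± 0.53 at day 14 and 8.73 ± 0.54 at day 4 in group 2 (SD, n = 5 each). Groups 4 and 5 thus read near the day 14 level of group 3 on both days.

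Cholesterol synthesis rose in nearly every enzyme measured. Of 18 measured enzymes from acetoacetyl-CoA to cholesterol, 15 rose and none fell in group 3, again against 12.8% of all genes called. Their median difference was 0.76, against 0.01 over all genes. In group 2 none was called by limma, 3 of 18 passed an unadjusted p under 0.05, all higher, the lognormal-normal model called 0, and the median was 0.17. The 7 mevalonate enzymes, which build isoprene units, had a median of 0.75 with 6 risen, and the 11 enzymes from squalene to cholesterol a median of 0.76 with 9 risen.

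Msmo1, the sterol 4-methyl oxidase, had log2 intensities of 10.91, 10.82, 9.70, 10.81 and 11.33 at day 14, against 9.07, 8.91, 8.83, 9.47 and 9.09 at day 4 in group 3, a difference of 1.64 ± 0.24 (SE, limma adjusted p = 0.00499) or 3.12-fold. All day 14 rats lay above all day 4 rats, but day 14 replicate 3, at 9.70, was well below the other day 14 rats. In group 2 the values of 9.55, 9.56, 10.18, 9.14 and 8.91 at day 14 and 9.25, 9.30, 9.06, 9.42 and 8.85 at day 4 overlapped (0.29 ± 0.20 SE, limma adjusted p = 0.718). The promoter of Msmo1 is shown because NF-Y, which binds the box CCAAT, works together with SREBP2 at sterol genes. Of 25 promoters of sterol genes in the same RefSeq set, 19 held CCAAT on either strand (76.0%), against 37.5% of all promoters, while the sterol response element in the form TCACNCCAC was in 0 of the 25 and in 1.12% of all. Capitals mark the boxes.
Msmo1, NF-Y boxes, chr16:29746920-29747069, plus strand: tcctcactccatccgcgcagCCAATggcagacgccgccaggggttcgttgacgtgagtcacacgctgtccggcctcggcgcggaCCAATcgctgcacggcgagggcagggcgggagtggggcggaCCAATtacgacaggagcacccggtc

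Sqle, squalene epoxidase, which takes the first oxygen-dependent step, read 9.35, 9.08, 7.57, 8.64 and 9.23 at day 14 against 7.14, 6.66, 6.89, 7.77 and 7.28 at day 4 in group 3. The difference was 1.63 ± 0.31 (SE, limma adjusted p = 0.0131), and the ranges overlapped only through day 14 replicate 3, at 7.57, and day 4 replicate 4, at 7.77. Idi1, which converts isoprene units into each other, showed the largest rise of the 2 lists, 1.93 ± 0.37 (SE, limma adjusted p = 0.0131), with 9.63, 9.29, 7.83, 9.06 and 9.53 at day 14 and 6.66, 6.75, 6.63, 8.19 and 7.45 at day 4, and the same 2 rats overlapped. Hsd17b7, a reductase late in the pathway, rose by 1.07 ± 0.13 (SE) without overlap. Acat2 rose by 1.15, Cyp51 by 1.16, Fdps by 0.99, Fdft1 by 0.82 and Lss by 0.74. Dhcr7, the last reductase, differed by 0.76 without passing the test, and Nsdhl and Ggps1 by 0.14 and 0.00.

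Mvd, mevalonate diphosphate decarboxylase, was the 1 sterol enzyme whose day difference was called apart from that of group 2. It read 7.71, 7.97, 7.52, 7.77 and 8.09 at day 14 and 7.21, 7.17, 7.19, 7.18 and 6.55 at day 4 in group 3, without overlap, and 7.40, 7.20, 7.19, 6.77 and 7.12 at day 14 and 7.13, 7.20, 7.26, 7.13 and 7.35 at day 4 in group 2. The difference of the differences was 0.83 ± 0.18 (SE, limma adjusted p = 0.0656), and 13 of the 18 enzymes were higher at an unadjusted p under 0.05 in the same test. In group 4, 12 of the 18 rose and the test of group 3 minus group 4 called none by limma (0.106% of all genes), nor did any pass an unadjusted p under 0.05. In group 5, 3 rose, and the test of group 3 minus group 5 called 0 by limma (1.4% of all genes), with 3 at an unadjusted p under 0.05. The median day difference over the 18 was 0.76 in group 3, 0.75 in group 4 and 0.55 in group 5.

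Among the genes that sense and move sterols, 4 of 11 rose and 1 fell, against 8.93% and 3.85% of all genes. The freely fed rats of group 2 had 5 of the 11 higher and 0 lower at an unadjusted p under 0.05, and the lognormal-normal model called 0 there. For group 3 minus group 2, 0 were higher and 1 was lower at an unadjusted p under 0.05, so the rises were not set apart from group 2. Insig1, which holds SREBP2 in the endoplasmic reticulum and is itself a target of it, read 12.12, 11.36, 10.34, 10.51 and 11.03 at day 14 against 9.36, 10.29, 8.79, 10.26 and 9.59 at day 4 in group 3 (1.41 ± 0.35 SE, limma adjusted p = 0.038). The lowest day 14 rat, at 10.34, was just above the highest day 4 rat, at 10.29. Insig2, the isoform that is not induced by SREBP2 and is high in fasted liver, read 10.50, 11.04, 11.58, 11.04 and 10.90 at day 14 against 11.60, 12.73, 11.51, 12.19 and 12.27 at day 4 (-1.05 ± 0.24 SE, limma adjusted p = 0.0258), where day 14 replicate 3 overlapped with day 4, and in group 2 it averaged higher than in group 3 on both days, with 12.68 ± 0.31 on day 14 and 12.77 ± 0.22 on day 4 (SD, n = 5 each). Srebf2, the gene of SREBP2, rose by 0.42 ± 0.11 (SE). Stard4 and Tmem97, which move cholesterol inside cells, rose by 0.49 and 0.54, and both calls were lost after quantile normalization, to differences of 0.40 and 0.47.

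Day 14 replicate 3 stood apart from its group in the sterol genes. On the scale from the day 4 mean of group 3 (0) to its day 14 mean (1), this rat had a median of 0.45 over the 15 called enzymes, and the other day 14 rats lay between 0.92 and 1.35. In group 2 the day 14 replicate 3 had the highest median of its diet, 0.68, and was nearer to the day 14 mean of group 3 in 11 of 15 enzymes. Replicate 3 of day 14 in group 3 was also nearest to day 4 in Fasn, Acss2 and Thrsp below.

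**Figure D3:**
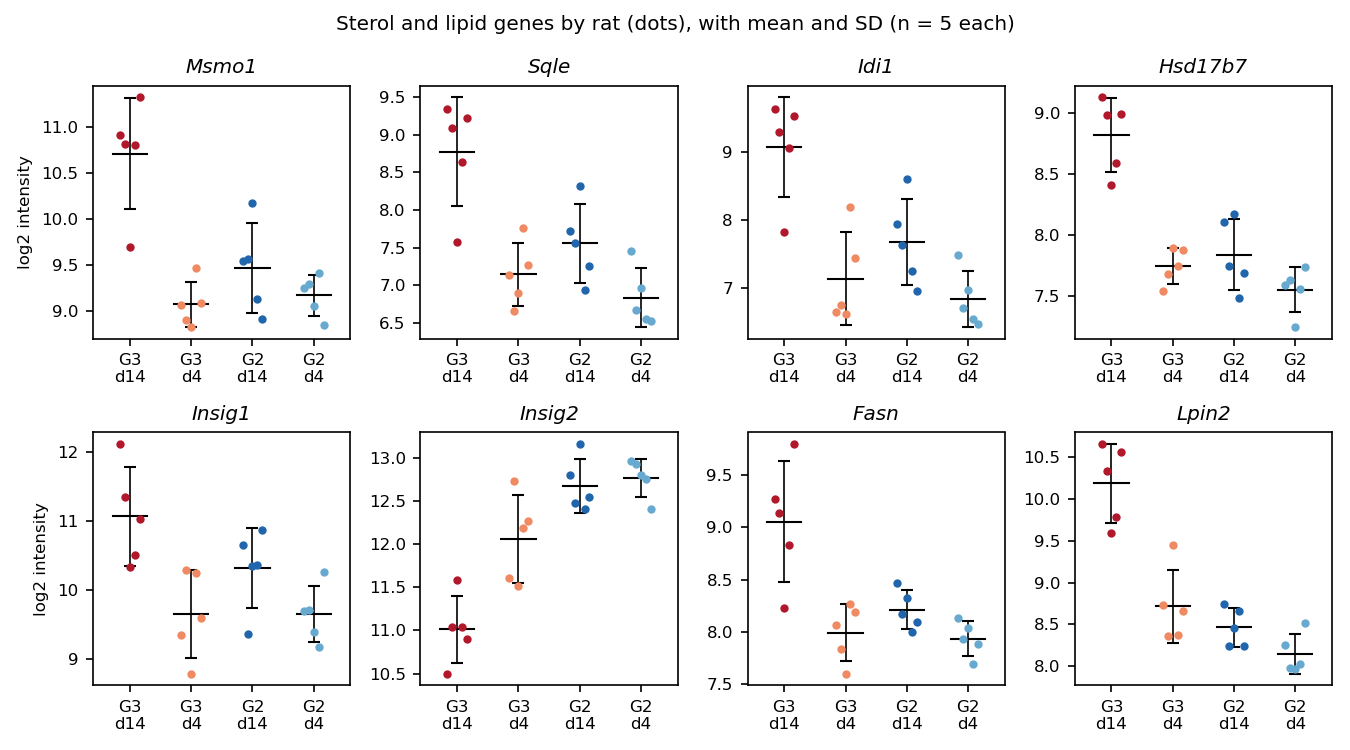
Log2 intensity of 8 sterol and lipid genes in each rat (dots), with the mean and SD of 5 rats, for group 3 (G3) and group 2 (G2) at day 14 (d14) and day 4 (d4). The mean of the day 14 rats of group 3 is the highest in all of these genes except Insig2, where it is the lowest, and 1 low rat of that group is seen in Msmo1, Sqle, Idi1 and Fasn.

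Fatty acid synthesis was higher too, with 7 of 13 risen and none fallen, against 8.93% and 3.85% of all genes, and a median of 0.38. Fasn, fatty acid synthase, read 9.27, 9.13, 8.23, 8.83 and 9.80 at day 14 against 8.07, 7.84, 7.60, 8.27 and 8.18 at day 4 in group 3 (1.06 ± 0.24 SE, limma adjusted p = 0.0249), where only day 14 replicate 3 lay within the day 4 range. Acss2, which makes acetyl-CoA from acetate, rose by 1.01, Thrsp, the lipogenic nuclear protein Spot 14, by 1.10 and Acly, ATP citrate lyase, by 0.73, the last 2 with calls that each of 6 arrays could end. Scd, the main desaturase, differed by 0.52 and was not called. In group 2 none of the 13 was called by limma and 0 by the lognormal-normal model, but 7 were higher at an unadjusted p under 0.05 and the median was 0.25.

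The enzymes that build triglyceride split. Lpin2, a phosphatidate phosphatase, read 10.66, 10.34, 9.59, 9.79 and 10.56 at day 14 against 8.73, 8.36, 9.45, 8.38 and 8.67 at day 4 (1.47 ± 0.24 SE, limma adjusted p = 0.00775), without overlap. A further, dimmer probe set of Lpin2 differed by 0.51. Its relative Lpin1 rose by 1.12 ± 0.20 (SE). Gpat4, the acyltransferase of the endoplasmic reticulum, rose by 0.48 ± 0.07 (SE), while the mitochondrial acyltransferase Gpam fell by 0.84 ± 0.18 (SE) and Agpat3 by 0.54 ± 0.13 (SE). Gpam was also called in the test of group 3 minus group 2, at -1.06 ± 0.22 (SE, limma adjusted p = 0.0411). Chka, choline kinase, which opens phosphatidylcholine synthesis, read 7.86, 8.63, 9.01, 8.48 and 8.01 at day 14 against 9.28, 10.14, 9.23, 10.50 and 10.41 at day 4 and fell by 1.51 ± 0.29 (SE) with an adjusted p of 0.0128 by limma. Plin2, the main coat protein of hepatic lipid droplets, was named after its values were seen. It read 10.89, 10.55, 11.12, 10.94 and 10.47 at day 14 against 11.64, 12.59, 11.28, 11.97 and 11.53 at day 4 (-1.01 ± 0.22 SE, limma adjusted p = 0.0211), without overlap. A further, dimmer probe set of Plin2 differed by -0.15.

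Few genes of fatty acid oxidation itself were called. Of 15 genes of its mitochondrial part 1 rose, the dehydrogenase Acads (0.20), and 1 fell, the electron carrier Etfdh (-0.49). This share was near the 12.8% of all genes called, and the list median was -0.07. The rise of Acads was not called after quantile normalization. At an unadjusted p under 0.05, 1 was higher and 5 lower in group 3, and 0 higher and 7 lower in group 2. Of 8 peroxisomal genes 1 fell and none rose, also near the share of all genes, with a median of 0.08. Of 15 further targets of the fatty acid receptor PPAR alpha, 4 fell and none rose in group 3, against 3.85% and 8.93% of all genes. They were Fgf21, the fasting hormone of the liver (-1.13), Vnn1, a pantetheinase (-0.92), and the omega-hydroxylases Cyp4a1 (-0.64) and Cyp4a3 (-0.46), whose probe sets may read each other's transcripts. The calls of Vnn1 and Cyp4a1 were lost on leaving out each of 8 (-0.96 to -0.78) and 5 arrays (-0.62 to -0.54) in turn. Fgf21 read 6.71, 6.39, 7.20, 7.08 and 6.38 at day 14 against 7.41, 8.41, 8.01, 7.98 and 7.58 at day 4, without overlap. The median of the list was -0.28 in group 3 and -0.25 in group 2. In group 2 none was called by limma, 7 were lower and 1 higher at an unadjusted p under 0.05, and the lognormal-normal model called 1. Crot, which hands medium-chain acyl groups from peroxisomes to carnitine, read 10.74, 11.56, 11.38, 10.67 and 11.25 at day 14 against 12.50, 12.82, 12.46, 12.53 and 12.55 at day 4 in group 3 and fell by 1.45 ± 0.16 (SE) with an adjusted p of 0.00186 by limma. In group 2 Crot read 12.16, 12.42, 12.68, 12.74 and 12.36 at day 14 and 12.74, 12.65, 12.35, 12.64 and 12.67 at day 4, and the difference of the differences was -1.31 ± 0.21 (SE, limma adjusted p = 0.00907).

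Of 5 ketone body genes 3 fell and 1 rose, where 12.8% of all genes were called. Slc16a1, the monocarboxylate carrier MCT1 for lactate and ketone bodies, read 9.91, 9.64, 10.14, 10.02 and 9.41 at day 14 against 10.68, 11.47, 10.84, 11.38 and 11.37 at day 4 in group 3, without overlap (-1.32 ± 0.18 SE, limma adjusted p = 0.00375), and it was called in the test of group 3 minus group 2 (-1.15 ± 0.22 SE, limma adjusted p = 0.0251). Slc16a6, a further carrier, and Acat1, the mitochondrial thiolase, fell by 0.53 and 0.22, with calls that 7 arrays each could end. Bdh2, a cytosolic dehydrogenase, rose by 0.96 ± 0.13 (SE).

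Glucose genes changed at the entry to glycolysis. Gckr, the protein that holds glucokinase in the nucleus, read 9.62, 9.98, 10.25, 9.34 and 10.29 at day 14 against 10.59, 11.41, 10.69, 11.40 and 11.13 at day 4 in group 3, without overlap (-1.15 ± 0.21 SE, limma adjusted p = 0.0118). In group 2 it read 11.32, 11.17, 11.43, 11.33 and 11.32 at day 14 and 11.37, 11.20, 11.20, 11.32 and 11.26 at day 4, and group 3 minus group 2 was -1.19 ± 0.24 (SE, limma adjusted p = 0.0359). Slc2a2, the glucose transporter GLUT2, rose by 0.81 ± 0.12 (SE), Pfkfb1, which sets the activator of phosphofructokinase, by 0.81 ± 0.21 (SE) and Gpi by 0.49 ± 0.09 (SE). In all 6 of 13 genes of glycolysis rose and 1 fell, against 8.93% and 3.85% of all genes. Of 7 genes that the study names from its network, the hubs Tkt (0.45), Pklr (0.58) and Pgm1 (0.22) rose. The hubs Hadha, Tpi1 and Eno3 were not called (-0.17, 0.16 and 0.24). Gk, glycerol kinase, fell (-0.85 ± 0.12 SE, without overlap). The study names Gk, with Gapdh, for the many network paths that pass between them, and Gapdh is not among the 7. The calls of Pklr and Pgm1 were lost after quantile normalization, at differences of 0.50 and 0.17, and on leaving out each of 7 and 8 arrays in turn.

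Of 23 genes of amino acid breakdown 9 rose and 1 fell, against 8.93% and 3.85% of all genes. Got1, cytosolic aspartate aminotransferase, read 13.18, 13.48, 13.22, 13.24 and 12.54 at day 14 against 12.25, 12.12, 12.48, 12.44 and 12.21 at day 4 in group 3, without overlap (0.83 ± 0.15 SE, limma adjusted p = 0.0102). Sds and Sdsl, serine dehydratase and its relative, rose by 0.56 and 0.55, and Glyat, which conjugates acyl groups to glycine, by 0.56. The exception was Kynu, kynureninase of tryptophan breakdown, with 10.48, 10.90, 11.30, 10.44 and 10.93 at day 14 against 11.91, 12.45, 11.97, 12.38 and 12.29 at day 4 (-1.39 ± 0.17 SE, limma adjusted p = 0.00259). The median of the list was 0.21 in group 3 and 0.23 in group 2. In group 2 none of the 23 was called by limma, 11 were higher at an unadjusted p under 0.05 and the lognormal-normal model called 1, and Got1 differed by 0.78 there, but Kynu by -0.08 (group 3 minus group 2: -1.31 ± 0.19 SE, limma adjusted p = 0.00907).

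**Figure D4:**
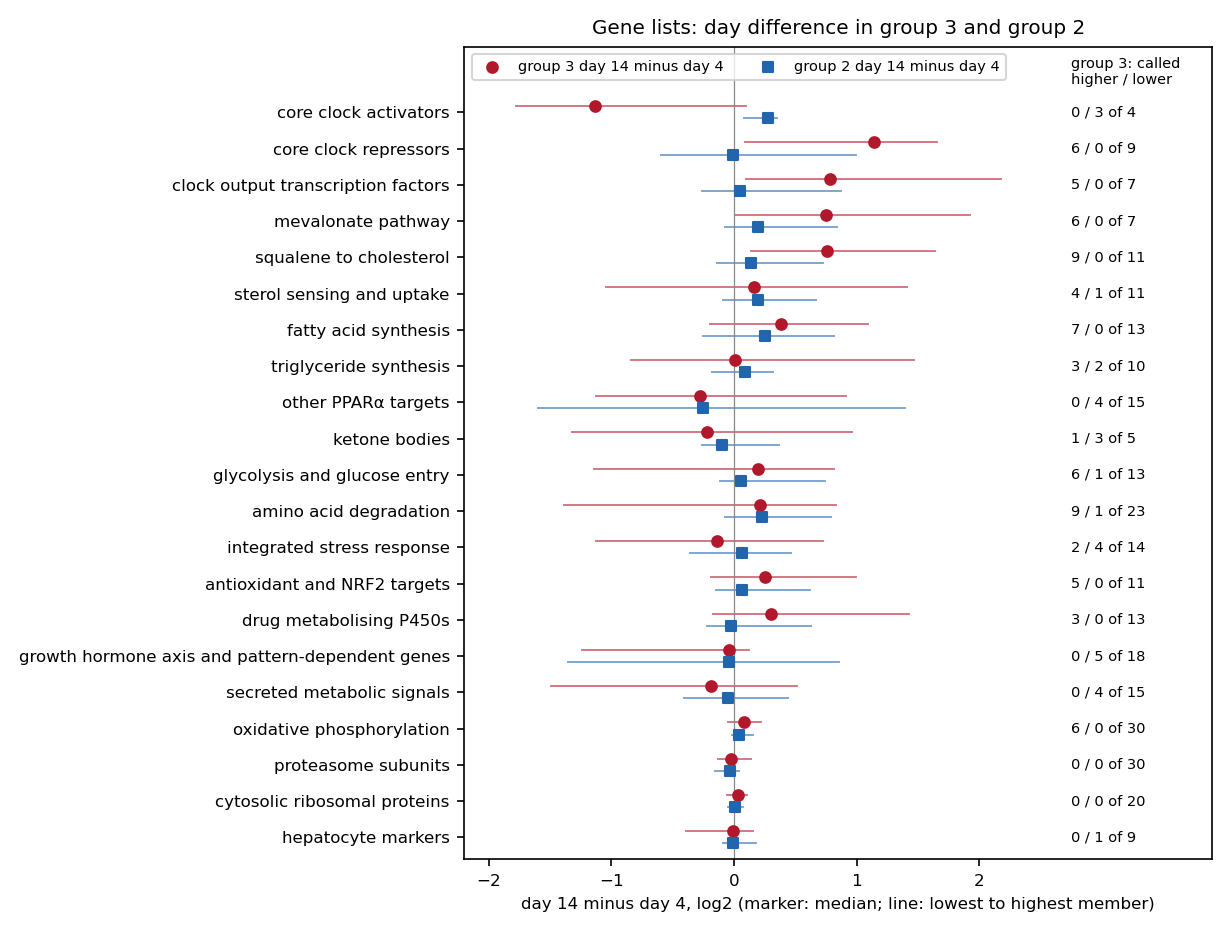
Median day difference (marker) and lowest to highest member (line) of 21 gene lists on the log2 scale, in group 3 (15% less food) and group 2 (ad libitum), with the number of members called higher and lower in group 3 at the right. The medians of the clock lists and the 2 sterol synthesis lists of group 3 lie far from 0, and those of group 2 lie nearer to it. The median of sterol sensing and uptake in group 3 is 0.17. The medians of the PPAR alpha and amino acid lists of both groups nearly coincide.

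Targets of the integrated stress response, the programme that ATF4 starts when amino acids run short, were mixed, with 4 of 14 fallen and 2 risen, where 12.8% of all genes were called. Atf5, a transcription factor of this programme, read 11.61, 11.57, 11.89, 11.36 and 11.66 at day 14 against 12.47, 12.71, 12.12, 12.53 and 12.61 at day 4 in group 3, without overlap (-0.87 ± 0.12 SE, limma adjusted p = 0.00374), and group 3 minus group 2 was -0.82 ± 0.17 (SE, limma adjusted p = 0.0419). Asns, asparagine synthetase, fell by 0.84 ± 0.15 (SE), while Cebpb and Ddit3, 2 further factors of stressed cells, rose by 0.73 and 0.54. Asns averaged 5.65 over all samples, below 5.68, the level under which the dimmest 25% of genes fall. The call of Cebpb was lost without day 14 replicate 2 or day 4 replicates 4 or 5 (0.68 to 0.69).

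Of 11 antioxidant genes, most of them targets of NRF2, 5 rose and none fell, against 8.93% and 3.85% of all genes. Akr7a3, an aldehyde reductase, rose by 1.00 ± 0.23 (SE) without overlap and Gclm, a subunit of the first enzyme of glutathione synthesis, by 0.77 ± 0.17 (SE). Hmox1, Txnrd1 and Gsr rose by 0.47, 0.31 and 0.25, and after quantile normalization 2 of the 11 were called. Hmox1 and Txnrd1 also lost their calls on leaving out each of 7 arrays in turn (0.34 to 0.52 and 0.24 to 0.33). Among 13 genes of drug metabolism 3 rose, led by Por, which feeds electrons to all microsomal P450s, at 12.83, 12.23, 11.88, 12.47 and 11.84 on day 14 against 11.19, 10.74, 11.25, 10.45 and 10.47 on day 4 (1.43 ± 0.21 SE, limma adjusted p = 0.00499). The xenobiotic receptor gene Nr1i2 rose by 0.46 ± 0.10 (SE) and Cyp1a1 by 0.32, a call lost without day 14 replicate 1 or 5 (0.30 each).

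Growth hormone genes and secreted signals were lower where called. Of 18 genes of the growth hormone axis or dependent on its pattern, 5 fell and none rose (3.85% of all genes fell). The list median was -0.04, and the lognormal-normal model called 2. Among the 5 were Socs2, the feedback inhibitor that growth hormone induces (-1.24), and Stat5b, its main transducer (-0.42). The pattern-dependent Cyp2c12 (-0.78) and Sult1e1 (-0.33) fell too. The probe set of Cyp2c12 averaged 11.97 over all samples, all from male rats. It may read transcripts of related Cyp2c genes, which was not tested. The calls of Socs2, Stat5b and Cyp2c12 could be ended by 6 or more of the 10 arrays, and that of Sult1e1 by 4. Of 15 secreted signals 4 fell, Fgf21 among them, and none rose. Igfbp2, a binding protein of insulin-like growth factors, read 8.22, 9.52, 9.32, 8.79 and 9.11 at day 14 against 10.82, 10.25, 11.04, 9.58 and 9.89 at day 4 in group 3 (-1.32 ± 0.30 SE, limma adjusted p = 0.0244). Inhbc, an activin subunit, fell by 0.71 ± 0.12 (SE) without overlap, and Inhba, another, by 1.49 ± 0.45 (SE). In Inhba day 4 replicate 3, at 5.78, lay below all 5 day 14 rats, and the other day 4 rats lay between 7.01 and 8.52. The call of Inhba was lost on leaving out each of 6 arrays in turn.

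Beyond these lists the largest rises without overlap were in genes of diverse roles. Kcnj15, a potassium channel, read 6.86, 7.28, 6.99, 7.24 and 8.29 at day 14 against 5.43, 5.25, 5.46, 5.43 and 5.49 at day 4 in group 3 (1.92 ± 0.22 SE, limma adjusted p = 0.00186). The day 4 rats all read below 5.68, in the range of the dimmest 25% of genes, and a further, dimmer probe set of Kcnj15 differed by 0.03. Nat8, an acetyltransferase of cysteine conjugates, rose by 1.81 ± 0.24 (SE), Lmo7, an actin-associated LIM protein, by 1.62 ± 0.15 (SE), Adh4, an alcohol dehydrogenase, by 1.49 ± 0.27 (SE), Wee1, the kinase that restrains CDK1, by 1.48 ± 0.19 (SE) and Coq10b, a coenzyme Q binding protein, by 1.30 ± 0.18 (SE). Nat8 and the related Nat8f3 may share signal between their probe sets, and Nat8f3 averaged 5.04 over all samples, also below 5.68.

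The largest falls were led by a gene known here only as RGD1309362, at 7.03, 7.27, 6.55, 9.04 and 7.50 on day 14 against 10.18, 9.62, 9.32, 9.91 and 10.58 on day 4 (-2.44 ± 0.39 SE, limma adjusted p = 0.00681). Cldn1, the tight junction protein claudin 1, read 7.01, 8.01, 8.42, 7.30 and 6.88 at day 14 against 9.37, 10.03, 9.15, 9.93 and 9.97 at day 4 (-2.17 ± 0.29 SE, limma adjusted p = 0.00367), a 4.49-fold fall, and 3 probe sets of the gene agreed in direction. Slc34a2, a sodium phosphate carrier, fell by 2.14 ± 0.35 (SE), Rprm, the p53-induced protein reprimo, by 1.86 ± 0.38 (SE), Serpina7, thyroxine-binding globulin, by 1.84 ± 0.40 (SE), Sult1c2, a sulfotransferase, by 1.25 ± 0.12 (SE) and Litaf, an endosomal membrane protein, by 1.19 ± 0.14 (SE). All of these were without overlap between the days, and the 5 day 14 values of Rprm lay below 5.68. Ugt2b, a steroid glucuronosyltransferase named after its values were seen, had the largest difference of all, 3.39 ± 1.70 (SE), and was not called (adjusted p = 0.242 by limma). It read 12.90, 12.97, 13.02, 13.23 and 13.39 at day 14 and 12.93, 4.17, 13.15, 5.21 and 13.09 at day 4 in group 3, and 6.87, 4.52, 13.11, 13.21 and 12.81 at day 14 and 13.14, 13.02, 12.88, 13.04 and 13.27 at day 4 in group 2. Thus 2 of 5 day 4 rats in group 3 and 2 of 5 day 14 rats in group 2 read 6.87 or less and all others 12.81 or more.

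The day difference of group 3 was then set against that of group 2 gene by gene. In this test 84 genes were called (0.591%), 53 with a higher (0.373%) and 31 with a lower difference (0.218%) in group 3, and 1411 passed an unadjusted p under 0.05 (9.92%). Of the 84, 82 were also called in group 3 alone, and 80 had the larger difference in group 3 and 4 in group 2. Among all 1817 genes called in group 3, 4.51% were called in this test, and among the 243 past 1.5-fold 48 (19.8%). The count depended on single arrays: it was 201 without day 14 replicate 3 of group 3, 186 without day 4 replicate 3 of group 3 and 40 to 51 without each of 10 other arrays.

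Among the higher differences were Kcnj15 (1.86 ± 0.33 SE, limma adjusted p = 0.0183), Nat8 (1.67 ± 0.31 SE, limma adjusted p = 0.0192), Lmo7 (1.37 ± 0.21 SE, limma adjusted p = 0.00907) and Wee1 (1.376 ± 0.27 SE, limma adjusted p = 0.0272), with differences of 0.06, 0.14, 0.25 and 0.11 in group 2. Nmrk1, which makes the NAD precursor nicotinamide mononucleotide, read 7.71, 7.18, 7.04, 7.34 and 7.84 at day 14 and 6.34, 5.83, 6.60, 5.86 and 6.13 at day 4 in group 3, and 5.95, 5.61, 6.25, 5.78 and 6.29 at day 14 and 6.17, 6.19, 5.43, 5.86 and 5.98 at day 4 in group 2 (group 3 minus group 2: 1.22 ± 0.26 SE, limma adjusted p = 0.0492). Slc2a5, the fructose transporter GLUT5, differed by 1.22 in group 3 and 0.04 in group 2. Bcl6, a repressor of transcription, had the larger difference in group 2: it read 9.76, 8.22, 7.33, 7.79 and 9.79 at day 14 and 8.25, 8.44, 7.56, 7.79 and 8.06 at day 4 in group 3, where it was not called (0.56 ± 0.44 SE), and 9.53, 7.25, 7.52, 6.93 and 8.76 at day 14 and 10.98, 10.65, 10.32, 10.02 and 10.41 at day 4 in group 2 (group 3 minus group 2: 3.04 ± 0.67 SE, limma adjusted p = 0.0656). Nceh1, a cholesteryl ester hydrolase, differed by 0.83 in group 3 and -0.73 in group 2. Its call in group 3 was lost after quantile normalization and on leaving out each of 7 arrays in turn.

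Among the lower differences Cldn1 came to -2.24 ± 0.35 (SE, limma adjusted p = 0.00907) and Litaf to -1.15 ± 0.19 (SE, limma adjusted p = 0.00907), with group 2 differences of 0.07 and -0.03. Slc1a4, a neutral amino acid transporter, read 5.46, 5.81, 5.88, 5.88 and 5.46 at day 14 and 6.91, 6.89, 6.36, 7.06 and 6.52 at day 4 in group 3, and 8.03, 8.39, 7.62, 7.10 and 7.43 at day 14 and 7.24, 7.03, 7.70, 6.39 and 6.81 at day 4 in group 2, so that the days differed in opposite directions (-1.73 ± 0.32 SE, limma adjusted p = 0.0215). Nek6, a mitotic kinase, Lgalsl, a galectin-like protein, and St8sia1, a ganglioside sialyltransferase, were lower at day 14 in group 3 (-1.06, -0.76 and -0.65) and not called in group 2 (0.22, 0.59 and 0.70). St8sia1 averaged 5.25 over all samples, in the range of the dimmest 25% of genes. Mmd2 came to -2.42 ± 0.58 (SE, limma adjusted p = 0.0898), with -0.93 in group 3 and 1.495 in group 2. Its call in group 3 was lost on leaving out each of 5 arrays in turn.

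**Figure D5:**
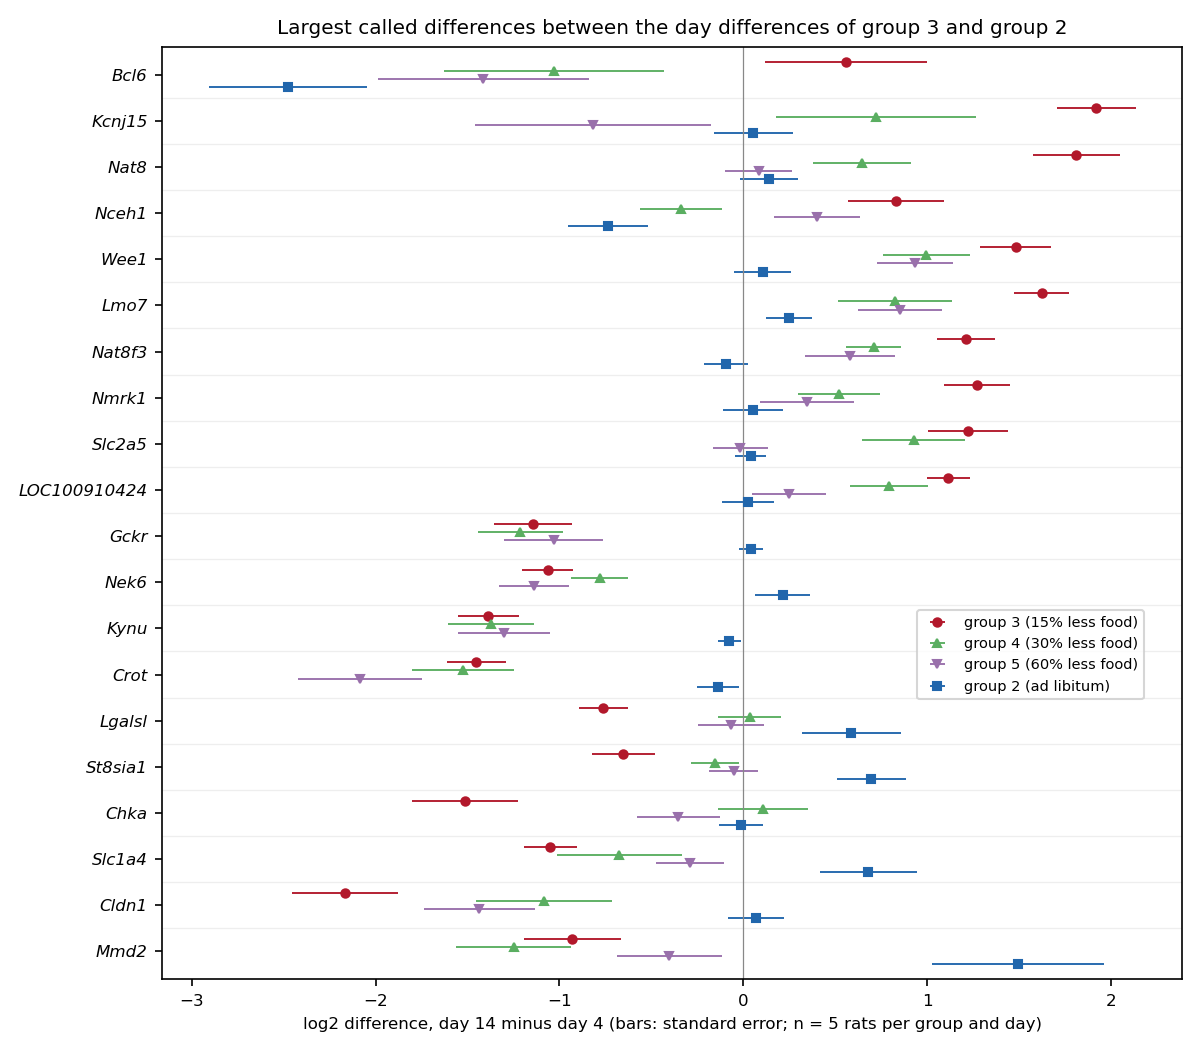
Day difference (point) with its standard error (line, n = 5 rats per group and day) in groups 3, 4, 5 and 2, on the log2 scale, for the 10 highest and 10 lowest called differences of group 3 minus group 2. For Gckr, Nek6 and Kynu the 3 restricted groups lie together and apart from group 2. For Crot the 3 restricted groups also lie below group 2, with group 5 the lowest, and for Chka group 3 lies apart from all others.

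Stronger restriction also gave day differences. In group 4, 778 genes were called (5.47%), 517 higher (3.64%) and 261 lower (1.84%). In group 5, 954 were called (6.71%), 555 higher (3.9%) and 399 lower (2.81%). Of the 1817 genes called in group 3, 338 were called in group 4 too, all in the same direction (18.6% of the group 3 list and 43.4% of the group 4 list). With group 5 the shared genes were 290, of which 278 had the same direction and 12 the opposite one (15.3% of the group 3 list and 29.1% of the group 5 list). Crot, Kynu and Gckr fell in all 3 groups. Crot differed by -1.45 in group 3, -1.52 in group 4 and -2.09 in group 5, Kynu by -1.39, -1.37 and -1.30, and Gckr by -1.15, -1.21 and -1.03.

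The tests of the difference between the restricted groups called 15 genes against group 4 (0.106%), with 1246 at an unadjusted p under 0.05, and 199 against group 5 (1.4%), of which 151 were higher (1.06%) and 48 lower (0.338%) in group 3. After quantile normalization the split against group 5 was 96 higher and 81 lower. Pklr differed by 0.58 in group 3 and -0.52 in group 5 (1.10 ± 0.29 SE, limma adjusted p = 0.0951), and Thrsp by 1.10 and -0.58 (1.67 ± 0.36 SE, limma adjusted p = 0.0486). Per2 and Hlf, with 1.65 and 0.81 in group 3 and 0.33 and -0.17 in group 5, were the clock genes called in that test, at adjusted p values of 0.0837 and 0.0748 by limma.

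Lists of general cell machinery were compared with the 12.8% of all genes called. Of 30 proteasome and 20 cytosolic ribosomal protein genes none was called in group 3 by limma, 0 passed an unadjusted p under 0.05 and the lognormal-normal model called 0, with medians of -0.03 and 0.03. Of 8 urea cycle genes 0 were called by limma and by the lognormal-normal model, but 6 were higher at an unadjusted p under 0.05. Group 2 had 4 of the 8 higher at that level, and 0 passed it in the test of group 3 minus group 2. Of 30 genes of oxidative phosphorylation 6 rose by 0.15 to 0.22, among them Sdha (0.22) and Ndufs1 (0.20), and after quantile normalization 1 of the 30 was called. Of 9 hepatocyte markers 1 fell, Apoa1, the main protein of high density lipoprotein (-0.39).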

How the data were processed

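Liver RNA was hybridised to Affymetrix rat expression arrays, and the authors deposited 1 table of intensity values, already normalized with the Robust Multi-Array Average (RMA) method and returned to a linear scale in whole numbers. The submitters' processing notes name the Affymetrix Expression Console, RMA, R 3.0.1 and affy 1.38.1. The lowest deposited intensity was 8 and the median 83, where 1 unit is 0.17 and 0.017 on the log2 scale. Scanner files were not analysed here, so signal over background is not known.

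The deposited intensity was taken to log2 with no offset. The platform annotation, which can be old, gives 1 gene symbol for 20826 of 31042 probe sets, several for 436 and none for 9780. Each of 14217 genes was read by its probe set of highest mean over all samples, and 4525 genes had several. Probe sets can also read near-identical paralogs, such as those of Nat8, Cyp2c, Cyp4a and Ugt2b genes.

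Day 14 was compared with day 4 within each diet in separate fits of limma 3.58.1 (R 4.3.3), with lmFit and eBayes, and the differences between diets by interaction contrasts over both diets. P-values were adjusted by Benjamini-Hochberg over all genes, with a threshold of 0.1 as in the methods of the study. Each label gives its own subject number, so that replicates are separate rats. Tables and plots were made in Python 3.11.15 with numpy 2.4.6, pandas 2.3.3 and matplotlib 3.10.9. The limma tests of group 3 and of group 3 minus group 2, and LNN-MV (described below) in group 3, were tried on simulated data with known changes. The other comparisons were not simulated. The alternatives were a threshold of 0.05, a minimum fold of 1.5, 1 fit of all groups, leaving out the dimmest 25% of genes, the mean of the probe sets or every probe set alone, quantile normalization, an offset of 16, array weights, a trended and robust variance, leaving out each array, and LNN-MV, the lognormal-normal model of the study whose variance may differ between genes, written anew.

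Named genes were the 14 largest rises and 14 largest falls among called genes without overlap in group 3. They also held up to 4 called members per direction of each list described and the 10 largest called differences from group 2 each way. Metabolic hub genes that the study names, and Gk, were taken too. Jam3, Noct, Nampt, Plin2 and Ugt2b were added after their values were seen, and other list members are named with their values only. The comparison, the gene lists and the promoters shown were chosen with earlier results of these data known.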

Additional observations from a re-analysis of the deposited data

Results flagged for a closer look

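In 25 of 428 groups of 5 rats examined over the named genes, 1 rat lay so far from the other 4 that its gap was more than 0.71 of the whole range, and chance gives such a gap in about 1 in 20 groups. In group 3, single rats were high, on the log2 scale, at Crot 12.82 in day 4 replicate 2 (the others 12.46 to 12.55), Cyp4a1 12.46 in day 14 replicate 3 (the others 11.59 to 11.78), Fdps 10.94 in day 4 replicate 4 (the others 10.48 to 10.59), Gpi 10.57 in day 4 replicate 3 (the others 10.16 to 10.26), Lmo7 7.27 in day 4 replicate 3 (the others 6.49 to 6.66) and Pklr 10.18 in day 4 replicate 5 (the others 9.68 to 9.78). Single rats of group 3 were low at Acat1 11.76 in day 4 replicate 5 (the others 11.92 to 11.96), Acss2 9.37 in day 14 replicate 3 (the others 10.12 to 10.36), Cyp4a3 12.84 in day 14 replicate 4 (the others 13.21 to 13.32), Eno3 5.67 in day 14 replicate 2 (the others 5.83 to 5.88), Glyat 9.83 in day 4 replicate 1 (the others 10.22 to 10.34), Gpat4 10.57 in day 4 replicate 3 (the others 10.72 to 10.78), Kcnj15 5.25 in day 4 replicate 2 (the others 5.43 to 5.49), Mvd 6.55 in day 4 replicate 5 (the others 7.17 to 7.21) and Serpina7 8.31 in day 4 replicate 1 (the others 9.18 to 9.43). In group 2 single rats were high at Acat1 12.28 in day 14 replicate 3 (the others 12.03 to 12.07), Cyp51 10.69 in day 14 replicate 3 (the others 9.95 to 10.14), Lpin1 10.23 in day 4 replicate 2 (the others 9.51 to 9.63), Pgm1 11.70 in day 4 replicate 1 (the others 11.29 to 11.38) and Srebf2 9.16 in day 4 replicate 1 (the others 8.80 to 8.90), and low at Crot 12.35 in day 4 replicate 3 (the others 12.64 to 12.74), Gk 11.68 in day 14 replicate 5 (the others 12.06 to 12.14), Igfbp2 9.80 in day 14 replicate 5 (the others 11.15 to 11.62), Nek6 7.54 in day 14 replicate 4 (the others 8.11 to 8.34) and Wee1 6.43 in day 4 replicate 4 (the others 6.66 to 6.69).

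For 26 named genes the day difference in group 3 differed from that in group 2 by the interaction test of limma, at an adjusted p under 0.1 over all genes. It was higher in group 3 for Bcl6 (3.04), Glyat (0.62), Kcnj15 (1.86), LOC100910424 (1.09), Lmo7 (1.37), Mvd (0.83), Nat8 (1.67), Nat8f3 (1.31), Nceh1 (1.57), Nmrk1 (1.22), Slc2a5 (1.18) and Wee1 (1.376) on the log2 scale. It was lower in group 3 for Atf5 (-0.82), Chka (-1.50), Cldn1 (-2.24), Crot (-1.31), Gckr (-1.19), Gpam (-1.06), Kynu (-1.31), Lgalsl (-1.35), Litaf (-1.15), Mmd2 (-2.42), Nek6 (-1.28), Slc16a1 (-1.15), Slc1a4 (-1.73) and St8sia1 (-1.35). Against group 4 none of the named genes differed in this test, and against group 5 11 did. The day difference in group 3 was higher than that in group 5 for Gpat4 (0.63), Hlf (0.97), Kcnj15 (2.74), Nat8 (1.73), Per2 (1.32), Pgm1 (0.35), Pklr (1.10), Slc2a5 (1.24) and Thrsp (1.67), and lower for Agpat3 (-0.69) and Cyp4a1 (-0.99).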

How the results depend on the processing

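At an adjusted p under 0.05, with a fold of at least 1.5 and by LNN-MV, 937, 243 and 1070 genes were called in group 3 in place of 1817. In group 2, where the main count was 1, a fold of at least 1.5 and quantile normalization called 0, 1 fit of all groups 39 and LNN-MV 37. In group 4 (main count 778) a threshold of 0.05, the fold and 1 fit of all groups gave 333, 190 and 1203, and in group 5 (954) 496, 241 and 2117, with 1705 under array weights. For group 3 minus group 2 (84) the threshold, the fold, 1 fit of all groups and array weights gave 42, 55, 127 and 240. For group 3 minus group 4 (15) the threshold, 1 fit of all groups, the mean of probe sets, all probe sets and quantile normalization gave 2, 5, 3, 2 and 4. For group 3 minus group 5 (199) the threshold, the fold, 1 fit of all groups, leaving out dim genes and array weights gave 57, 98, 545, 305 and 357. Leaving out each array in turn gave 960 to 1980 in group 3, 0 to 3 in group 2, 329 to 796 in group 4, 411 to 1498 in group 5, 40 to 201 for group 3 minus group 2, 0 to 40 for group 3 minus group 4 and 73 to 322 for group 3 minus group 5. The lowest count of group 4 came without its day 4 replicate 1 and of group 5 without its day 4 replicate 3, and the highest of group 5 without its day 14 replicate 3. Where these counts moved, the cause was not tested. Among 101 called genes named, none changed sign under any alternative, 82 kept the call under all alternatives other than leaving out an array, LNN-MV and the stricter thresholds, 77 kept it without each array in turn, 80 at 0.05 and 89 by LNN-MV. Quantile normalization called 1310 genes in group 3, of which 1044 were among the 1817. No paired analysis was possible because the labels give no shared replicate numbers. Groups of 5 rats, 1 array each, and the missing scanner signal limit what small differences can show.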

Other observations

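Some gene groups outside the main pathways also held called genes at day 14 against day 4 in group 3. Nampt, the enzyme that makes the NAD precursor nicotinamide mononucleotide from nicotinamide, was named after its values were seen and read 11.12, 10.98, 10.60, 11.45 and 11.12 at day 14 against 10.58, 9.74, 10.03, 9.90 and 10.09 at day 4 (0.99 ± 0.17 SE, limma adjusted p = 0.00871). Together with Nnmt, which methylates nicotinamide (0.58), and Nadk, which makes NADP (0.32), 3 of 9 measured genes of NAD metabolism and sirtuins rose and none fell, against 12.8% of all genes called. In methionine and one-carbon metabolism 4 of 14 rose and 2 fell. Group 2 had 5 of the 14 higher and 0 lower at an unadjusted p under 0.05, and the lognormal-normal model called 1 there. For group 3 minus group 2, 1 was higher and 4 were lower at an unadjusted p under 0.05. Cth, which makes cysteine from cystathionine, differed by -0.86 and Psat1 of serine synthesis by -0.39, while Mthfd1, Shmt1, Shmt2 and Mat1a rose by 0.23 to 0.36. Of 8 genes of the pentose phosphate pathway 3 rose, namely Tkt (0.45), Pgd (0.37) and Taldo1 (0.20).

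The counts of called genes, above and below, stand beside 8.93% of all genes higher and 3.85% lower. In glycogen metabolism 3 of 7 rose, among them Ugp2, which makes the donor UDP-glucose (0.61), and Ppp1r3b, which brings a phosphatase to glycogen (0.51), while after quantile normalization 1 of the 7 was higher and 1 lower. In bile acid synthesis and transport 2 of 13 rose and 1 fell: Nr0b2, the repressor SHP, differed by 1.31 and Cyp27a1 by 0.21, and Abcb4, the phospholipid exporter of the bile canaliculus, by -0.63. Cyp7a1, the rate-limiting enzyme of bile acid synthesis, differed by 1.09 and was not called. Of 18 genes of protein folding in the endoplasmic reticulum 3 fell, a share near the 12.8% of all genes called in either direction, namely Hspa5 (-0.29), Creld2 (-0.38) and Manf (-0.25), and none rose. In the cell cycle list of 19, Ccnd1, cyclin D1, rose (0.98) and Cdkn1a, the inhibitor p21, fell (-0.96), and no other member was called, a share no higher than that of all genes.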
